A study of Mus musculus with 16 samples.

Results

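The proteasome is the protease that degrades ubiquitin-tagged proteins in every mouse cell, and its genes carry systematic names. Its genes were taken as all protein-coding symbols that begin with Psma, Psmb, Psmc, Psmd, Psme or Psmg and a digit. The rule found 48 genes among the 13652 genes counted. RNA was sequenced from AML246, a line of mouse leukaemia cells of the acute myeloid type grown in IMDM with 10% serum and interleukin-3, over 24 days. The 16 libraries formed 8 groups of 2, and 14 of them came from total viable cells. The groups were cells given 0.1 µg/mL doxycycline for 4, 8 or 12 days, Cd11b-high cells sorted at day 12, cells 4, 8 and 12 days after doxycycline was withdrawn at day 12, and untreated cells at day 0. The series title ties doxycycline to restored PU.1, a myeloid transcription factor encoded by Spi1, and its withdrawal to renewed knockdown. The labels describe neither the construct nor the promoter that gives this response. All groups came from the same leukaemia line, so they hold no second genetic background.

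The proteasome core is a barrel of stacked rings, with outer rings of alpha subunits that gate the channel and inner rings of beta subunits that hold the active sites. A regulatory cap binds ubiquitinated proteins, removes the ubiquitin and feeds the unfolded chain into the barrel. The catalytic subunits of the standard barrel are Psmb5, Psmb6 and Psmb7. Interferon-gamma and the haematopoietic state favour another barrel, the immunoproteasome, in which Psmb8 replaces Psmb5, Psmb9 replaces Psmb6 and Psmb10 replaces Psmb7. Immunoproteasomes are known for cutting peptides that fit MHC class I molecules. The 48 genes comprised 7 alpha subunits, 7 standard beta subunits, 3 immunoproteasome beta subunits, 1 thymus-specific beta subunit (Psmb11), 6 cap ATPases, 14 cap genes named Psmd, 4 activators, 4 assembly chaperones named Psmg and 2 genes that share only the name (Psmc3ip and Psme3ip1). The classes follow the names. Among the Psmd genes, Psmd5, Psmd9 and Psmd10 help to assemble the cap and are not subunits of the finished one. All 48 exceeded 0.5 CPM, which is reads scaled to library size, in at least 3 libraries, as did every deposited gene. Psmb11 met this floor only with the help of the day 0 libraries, so its falls against day 0 are not independent of the floor.

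Total counts ran from 12962801 to 26509803 per library, and the 48 genes took 0.478% to 0.850% of them. Spi1 stood at 226 and 219 CPM at day 12, against 66.3 and 56.8 CPM at day 0, as the labels describe. Nothing in the labels tells whether libraries A and B of a group came from different cultures, so the p-values may rest on technical spread alone. Replicate A at 12 days off stood apart: 44 of the 48 genes were higher in it than in replicate B, by a median of 0.48 log2 units, while the median over all genes was 0.00. In the other 7 groups the median difference between replicates over the 48 genes lay between -0.03 and 0.12. Mitochondrial genes took 7.36% and 6.35% of counts at day 0 and 2.01% to 3.59% in all later libraries, so this share moves with every comparison against day 0, and its part in them was not tested. Lineage markers also changed along the course. The 7 neutrophil markers summed to 602 to 621 CPM at day 12, against 10.9 to 20.9 CPM at day 0, and the 6 eosinophil markers to 7954 to 8892 CPM at day 12, against 2077 to 5173 CPM at day 0. The 6 progenitor markers summed to 632 to 659 CPM at day 12, against 1377 to 1639 CPM at day 0. Of these 6, 4 were called lower and 2 higher (adjusted p under 0.05 in edgeR). Of the other lists, 5 of 9 macrophage and dendritic markers were found and summed to 66.4 to 66.9 CPM at day 12, against 13.7 to 14.0 CPM at day 0. The 4 of 10 lymphoid markers found summed to 169 to 178 CPM at day 12, against 225 to 316 CPM at day 0, and the 4 of 6 basophil and mast cell markers to 1531 to 1532 CPM, against 1830.4 to 2120 CPM. Cpa3 made up most of the basophil and mast cell sum and fell. By the same edgeR threshold, 3 of these 4 genes were called higher and 1 lower, with a median log2 fold of 0.81. The 2 of 5 erythroid markers found summed to 3.28 to 3.60 CPM at day 12, against 11.4 to 19.1 CPM at day 0. No marker found in the files was at 0 in any group. In bulk libraries fewer cells of a type and less RNA per cell cannot be told apart, and the part of these lineage changes in the results below was not tested.

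The immunoproteasome genes Psmb8 and Psmb9 lie on chromosome 17 among the genes of the peptide transporter. In the RefSeq annotation of GRCm38.p6, Psmb9 (34182030 to 34187330) is read leftward and Tap1 (34187556 to 34197225) rightward, with 225 bases between their starts. Psmb8 (34198195 to 34201454) follows 969 bases after Tap1, and Tap2 (34204479 to 34216321) follows 3024 bases after Psmb8. The bases before the start are shown for the 3 immunoproteasome genes and for Psmb5, because these genes moved in different directions. They are chr17:34198095-34198194 on the plus strand for Psmb8 and, on the minus strand, chr17:34187331-34187555 for Psmb9, chr8:105938393-105938492 for Psmb10 and chr14:54617996-54618095 for Psmb5. Each ends at the base before the gene's start, and the Psmb9 sequence is the whole gap to Tap1. Capitals mark matches to the motifs listed after the sequences.
Psmb8: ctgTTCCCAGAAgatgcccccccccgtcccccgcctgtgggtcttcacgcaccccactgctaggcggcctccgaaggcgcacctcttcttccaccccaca
Psmb9: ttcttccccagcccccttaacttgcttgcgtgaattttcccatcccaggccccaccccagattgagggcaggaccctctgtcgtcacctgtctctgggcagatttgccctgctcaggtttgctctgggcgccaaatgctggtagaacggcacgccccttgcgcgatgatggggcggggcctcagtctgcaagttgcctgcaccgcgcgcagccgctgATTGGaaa
Psmb10: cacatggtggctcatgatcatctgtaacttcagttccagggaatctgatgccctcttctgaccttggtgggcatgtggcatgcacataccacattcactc
Psmb5: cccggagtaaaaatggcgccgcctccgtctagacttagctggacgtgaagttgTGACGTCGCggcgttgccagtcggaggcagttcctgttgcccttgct

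Of the 48 genes, 41 had a RefSeq promoter window, of 250 bases before to 50 bases after the start. It was searched on both strands for 6 motifs. The gamma-activated sequence TTCNNNGAA was present in the windows of 3 of 41 proteasome genes (7.32%), among them Psmb8 at -97, and in 8.34% of the 10257 tested genes with a window. The interferon-stimulated response element core, GAAA and a second GAAA with any 2 bases between them, was in 5 of 41 (12.2%), against 3.60% of tested genes, and these 5 were Psmb3, Psmd4, Psmd9, Psme1 and Psmg4. The antioxidant response element core TGACNNNGC, to which Nfe2l1 and Nfe2l2 bind, was in 6 of 41 (14.6%), against 16.8%, with Psmb5 at -47. The CCAAT box was in 16 of 41 (39.0%), against 43.4%, and Psmb9 carried it on the other strand at -8. The PU box GAGGAAGT was in 3 of 41 (7.32%), against 3.89%, and the ETS site CCGGAAGT, with which it shares the letters GGAAGT, in 9 of 41 (21.95%), against 9.23%. No match of these 6 motifs lay in the window of Psmb10. These matches describe letters in a short window and are not tests of binding.

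The first question was what the proteasome genes did when doxycycline was given. After 12 days the immunoproteasome genes Psmb8 and Psmb9 rose, whereas Psmb10 fell with much of the standard core. Psmb8 stood at 182 and 186 CPM at day 12, against 129.9 and 142 CPM at day 0 (log2 fold 0.44, SE 0.14, adjusted p = 0.0147, all adjusted p-values from edgeR's quasi-likelihood test with Benjamini-Hochberg adjustment over all genes). Psmb9 stood at 106 and 106 CPM at day 12, against 47.2 and 57.3 CPM at day 0, a 2.03-fold rise (log2 fold 1.02, SE 0.14, adjusted p = 1.36e-05). Psmb10 stood at 25.1 and 24.8 CPM at day 12, against 39.1 and 48.8 CPM at day 0 (log2 fold -0.81, SE 0.23, adjusted p = 0.00579). In each of these genes the libraries of day 12 and day 0 did not overlap. The same held for most of the 48 genes, 11 of them higher and 35 lower, uncalled genes included. Its share over all genes was not computed, so it sets no gene apart. The call of Psmb8 was lost without day 0 replicate A (adjusted p = 0.1) or day 12 replicate B (adjusted p = 0.0652), and that of Psmb10 without day 0 replicate B (adjusted p = 0.06). That of Psmb9 was kept whichever of the 4 libraries was left out.

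Along the whole course, the 3 immunoproteasome genes had different shapes. Psmb8 gave 114 and 110.4 CPM at day 4, 184 and 183 CPM at day 8, 219 and 212 CPM at 4 days off, 158 and 168 CPM at 8 days off and 265 and 175 CPM at 12 days off. Psmb9 gave 79.5 and 67.7 CPM at day 4, 108 and 105 CPM at day 8, 125 and 118 CPM at 4 days off, 71.5 and 74.6 CPM at 8 days off and 107 and 78.9 CPM at 12 days off. Psmb10 gave 19.4 and 17.4 CPM at day 4, 25.6 and 26.5 CPM at day 8, 36.7 and 40.0 CPM at 4 days off, 32.6 and 32.4 CPM at 8 days off and 67.6 and 33.2 CPM at 12 days off. At day 4 Psmb9 had already risen (log2 fold 0.50, SE 0.14, adjusted p = 0.00573), Psmb10 was at its lowest (log2 fold -1.25, SE 0.23, adjusted p = 0.000285) and Psmb8 was not called (log2 fold -0.27, SE 0.14, adjusted p = 0.117). Psmb9 had its highest group mean at 4 days off, when Spi1 was back at 65.0 and 56.6 CPM, and both Psmb8 (log2 fold 0.67, SE 0.14, adjusted p = 0.00232) and Psmb9 (log2 fold 1.22, SE 0.14, adjusted p = 1.17e-05) were then above day 0. Against day 12, neither was called at that time (Psmb8 adjusted p = 0.232, Psmb9 adjusted p = 0.243).

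**Figure D1:**
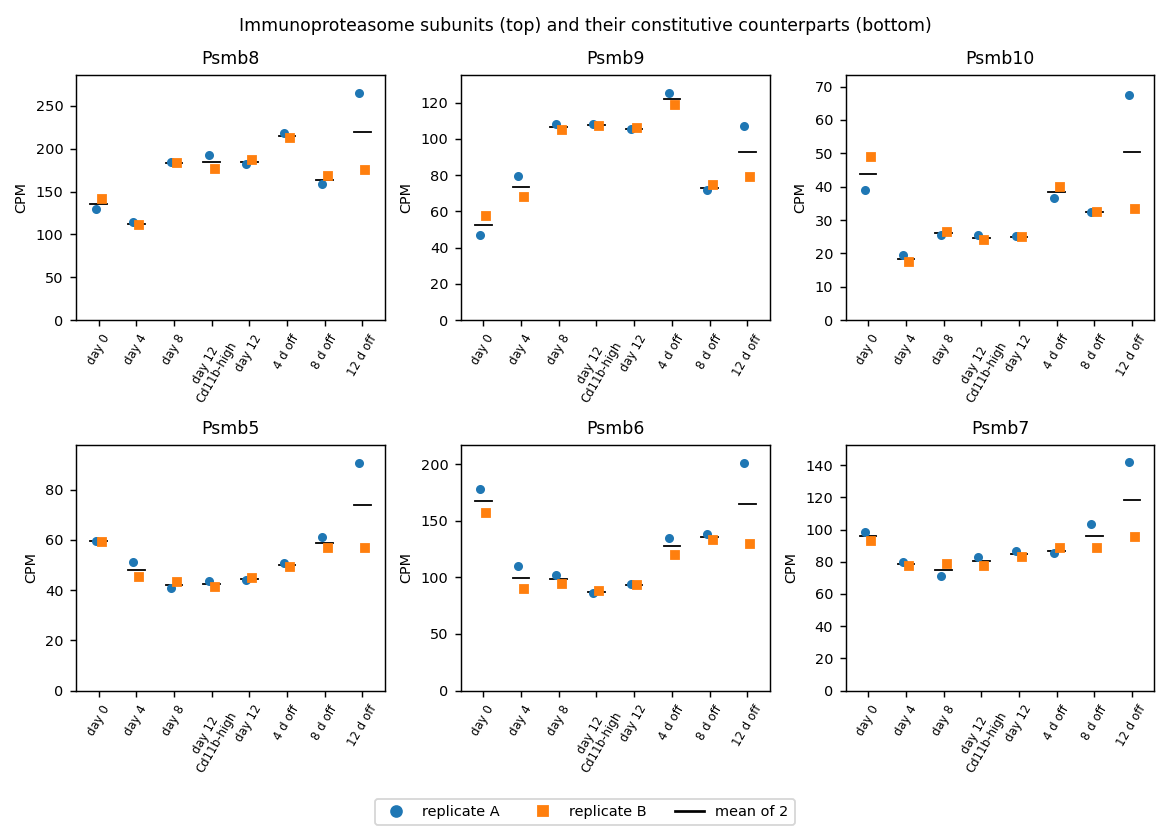
CPM of the 3 immunoproteasome beta subunits (top row) and of the standard subunits they replace (bottom row) in each library, by group, with a line at the mean of 2. Psmb9 was above day 0 in every later group, Psmb10 was lowest at day 4, and replicate A at 12 days off was above replicate B in all 6 genes.

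The standard catalytic subunits Psmb5 and Psmb6 fell at day 12, but with the length trend across all genes removed, as described further on, Psmb5 stood at 0.05, Psmb6 was still called lower and Psmb7 was called higher at 0.25. Psmb5, the chymotrypsin-like subunit, stood at 44.0 and 44.6 CPM at day 12, against 59.6 and 59.2 CPM at day 0 (log2 fold -0.42, SE 0.16, adjusted p = 0.0279). Psmb6, the caspase-like subunit, stood at 93.9 and 93.4 CPM at day 12, against 178 and 157 CPM at day 0 (log2 fold -0.84, SE 0.16, adjusted p = 0.000362). Psmb7, the trypsin-like subunit, stood at 86.5 and 83.1 CPM at day 12, against 98.8 and 92.9 CPM at day 0 and was not called (log2 fold -0.18, SE 0.14, adjusted p = 0.298). In all 3 genes the day 12 libraries lay below the day 0 libraries, as in 35 of the 48, and the call of Psmb5 was lost without any 1 of the 4 libraries. Between these times, Psmb5 gave 51.1 and 45.2 CPM at day 4 and 40.9 and 43.1 CPM at day 8, Psmb6 gave 109.9 and 89.7 CPM and 102 and 94.4 CPM, and Psmb7 gave 79.6 and 77.7 CPM and 71.4 and 78.5 CPM at the same times. At 4, 8 and 12 days off, Psmb5 gave 50.8 and 49.3, 61.0 and 56.7, and 90.6 and 56.9 CPM. Psmb6 gave 135 and 119.8, 138 and 133, and 201 and 129 CPM, and Psmb7 gave 85.6 and 88.3, 104 and 88.9, and 142 and 95.4 CPM. All 3 genes had their lowest group mean on doxycycline. At 8 days off Psmb5 and Psmb7 were near their day 0 levels, while Psmb6 was still below its own in both libraries.

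The balance of the 2 kinds of barrel was measured inside each library as the summed reads per kilobase of Psmb8, Psmb9 and Psmb10 over those of Psmb5, Psmb6 and Psmb7, a ratio that does not depend on how libraries are scaled. The length trend described further on need not cancel in it. Psmb8 (1223 bases) and Psmb10 (1270) are longer than Psmb5 (871), Psmb6 (1036) and Psmb7 (969), while Psmb9 (806) is shorter. The ratio was not recomputed with that trend removed. It was 0.572 and 0.715 at day 0, 0.84 and 0.86 at day 4, 1.39 and 1.36 at day 8 and 1.30 and 1.34 at day 12. It was 1.31 and 1.34 at 4 days off, 0.786 and 0.896 at 8 days off and 0.907 and 0.925 at 12 days off. The sum of the immunoproteasome genes therefore passed that of the standard genes between day 4 and day 8 and dropped below it again between 4 and 8 days off. The 6 libraries of total cells on doxycycline had a mean log2 ratio of 0.21 ± 0.34 (SD), against -0.65 ± 0.23 in the 2 libraries of day 0, a difference of 0.85 (exact permutation test, two-sided, p = 0.0357, the smallest that 28 arrangements allow). Against the 6 libraries after withdrawal, whose mean was 0.01 ± 0.32, the difference was 0.20 and did not pass (exact permutation test, two-sided, p = 0.383 over 924 arrangements). Each of these pools of 6 libraries joined 3 times between which the ratio changed. Their SDs therefore hold change over time as well as replicate spread, and the tests say nothing about any single time. The withdrawal pool joined 4 days off, with ratios near those of day 12, and the lower ratios of 8 and 12 days off. With the mean of the log2 ratios of the 3 replaced pairs in place of the ratio of sums, the difference from day 0 was 0.53 (exact permutation p = 0.107), and without day 0 replicate A or B no p under 0.143 could be reached.

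**Figure D2:**
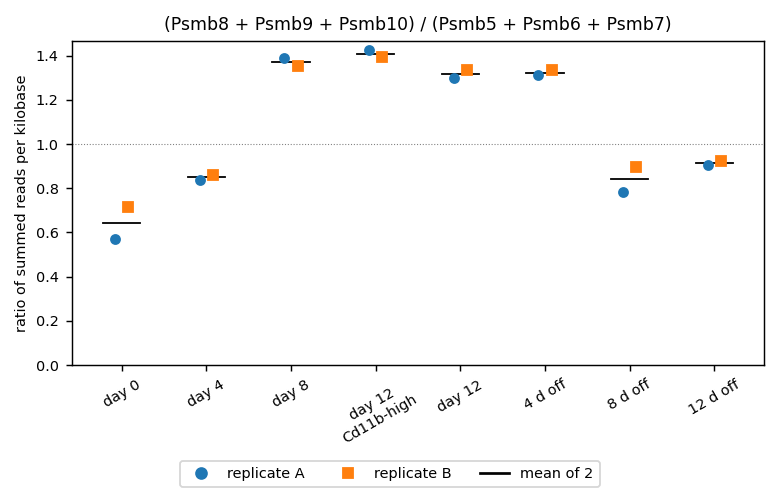
Summed reads per kilobase of Psmb8, Psmb9 and Psmb10 divided by those of Psmb5, Psmb6 and Psmb7 in each library, by group. The ratio lay between 1.30 and 1.43 from day 8 to 4 days off and below 1 in the other groups, marked by the dotted line.

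The 3 replaced pairs contributed unequally. Psmb8 over Psmb5, per kilobase, averaged 2.96 ± 0.02 at day 12 and 1.63 ± 0.11 at day 0 (SD of 2 libraries). Psmb9 over Psmb6 averaged 1.45 ± 0.01 at day 12 and 0.41 ± 0.09 at day 0. Psmb10 over Psmb7 went the other way, at 0.22 ± 0.00 at day 12 and 0.35 ± 0.07 at day 0. Psmb10 made up 6.52% ± 0.11 of the immunoproteasome sum at day 12 and 16.4% ± 0.90 at day 0. Both sums moved. The sum of the immunoproteasome genes was 299.7 and 303 RPKM (CPM per kilobase of gene) at day 12, against 195 and 225 RPKM at day 0, and the sum of the standard genes was 230.4 and 227 RPKM at day 12, against 342 and 315 RPKM at day 0. At day 4 the immunoproteasome sum was 207 and 188 RPKM, within or below its day 0 range, while the standard sum was 247 and 219 RPKM. Since an immunoproteasome with all its own active sites needs all 3 subunits, the measured RNAs do not give the number of such particles.

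Over the whole set, 8 of the 48 genes were higher and 23 lower at day 12 than at day 0. Among all 13652 genes 63.4% were called, 30% higher and 33.4% lower. The median log2 fold was -0.29 over the 48 genes and -0.07 over all genes. The set thus held fewer rises and more falls than the background in this comparison. With scaling to library size alone, which moved the median of all genes to -0.20, 5 genes were higher and 32 lower.

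**Figure D3:**
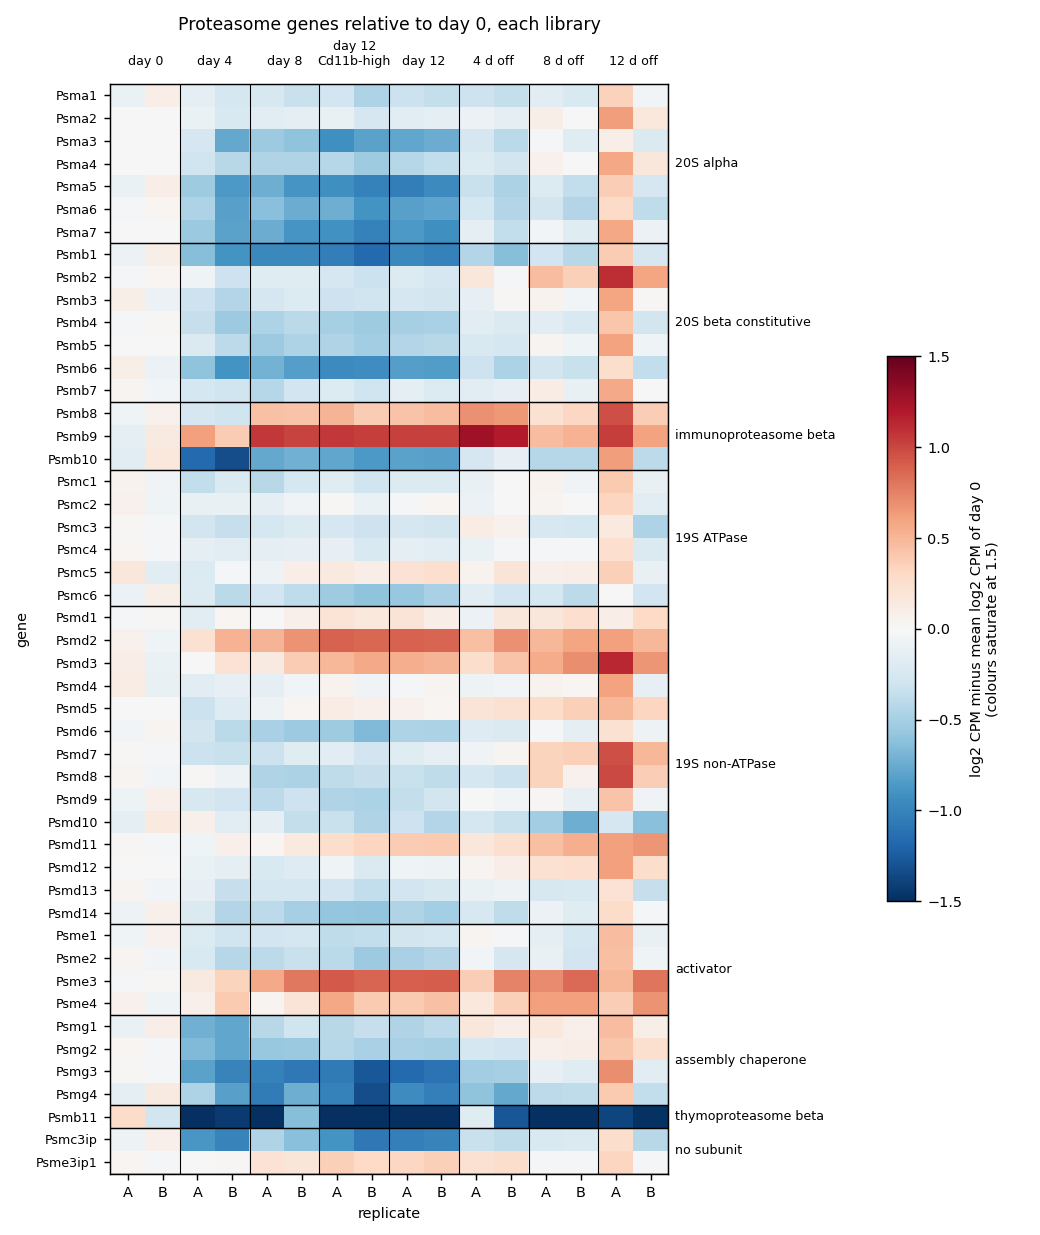
log2 CPM of each of the 48 genes in each library, minus the mean log2 CPM of the day 0 libraries, with genes ordered by class (rows) and libraries by group (columns). Psmb8, Psmb9, Psmd2, Psmd3 and Psme3 stood above day 0 at days 8 and 12, and the column of replicate A at 12 days off stands apart from that of replicate B.

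Fold changes in this comparison followed gene length across all genes, and proteasome genes are short. The median length was 1273.5 bases for the 48 genes and 2627 bases for all genes. At day 12 against day 0, the median log2 fold of all genes was -0.66 for genes under 1000 bases, -0.34 for 1000 to 1500 bases, -0.22 for 1500 to 2000 bases, -0.02 for 2000 to 3000 bases, 0.12 for 3000 to 5000 bases and 0.31 for genes over 5000 bases. The replicates within day 12 and within day 0 had median differences between -0.04 and 0.03 in these length classes. With the length trend removed, an alternative chosen after seeing the data, 13 genes were higher and 13 lower (32.8% of all genes higher and 32.5% lower in that fit), and the median log2 fold over the 48 genes was -0.01. The 7 rises called both ways were Psmb8, Psmb9, Psmd2, Psmd3, Psmd11, Psme3 and Psme3ip1. The 13 falls called both ways were Psma3, Psma5, Psma6, Psma7, Psmb1, Psmb6, Psmb10, Psmb11, Psmc3ip, Psmc6, Psmd9, Psmd14 and Psmg3. That of Psmb11 is not independent of the floor it passed only with day 0. No gene was called in opposite directions. Whether the length trend arose in the cells or in the libraries was not tested.

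**Figure D4:**
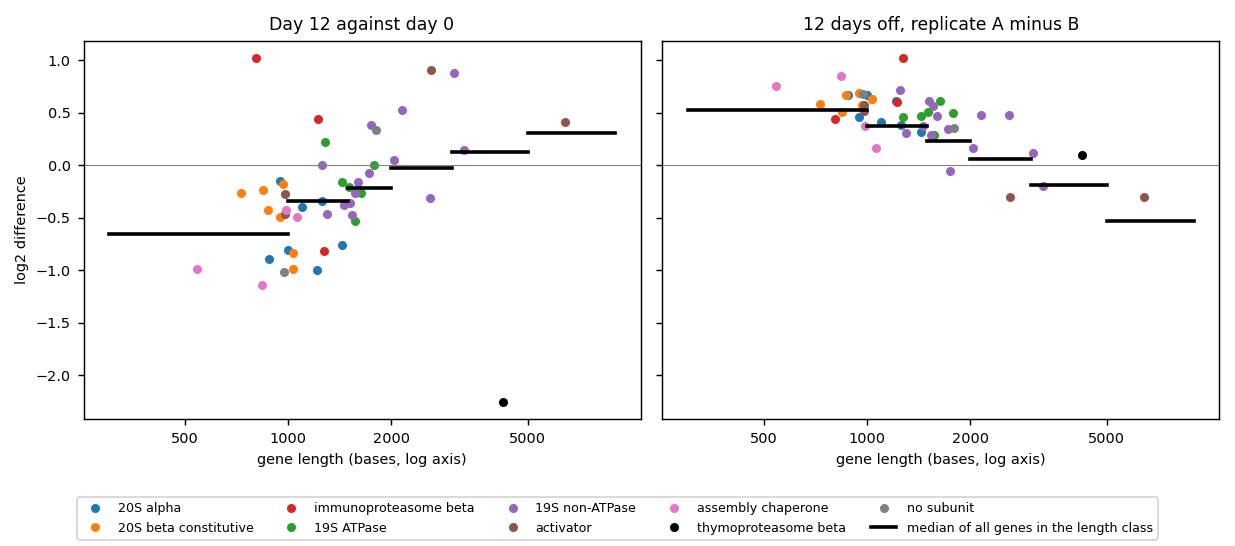
log2 difference of the 48 genes against gene length in bases (log axis), coloured by class, for day 12 against day 0 (left) and for replicate A minus replicate B at 12 days off (right), with black bars at the median of all genes in each length class (the outer classes are open-ended). Short genes lay below 0 on the left and above 0 on the right, and Psmb8, Psmb9, Psmd2 and Psme3 lay above the bar of their length class on the left.

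The alpha ring fell. Of its 7 genes 6 were lower at day 12 than at day 0 and none was higher, with a median log2 fold of -0.76, and 4 were lower and 1 higher with the length trend removed (median -0.39). Psma5 had the largest fall, with 43.1 and 45.5 CPM at day 12, against 82.1 and 94.9 CPM at day 0 (log2 fold -0.997, SE 0.17, adjusted p = 0.000111), and its log2 fold was -0.66 with the trend removed. Psma2 had the smallest difference (log2 fold -0.15, SE 0.13, adjusted p = 0.308) and reached 0.29 without the trend. The median over the 7 standard beta subunits was -0.42, with 4 lower and none higher, but 0.05 with the trend removed, when 2 were lower and 3 higher. Psmb1, a non-catalytic beta subunit, fell to 212 and 205 CPM at day 12, against 389 and 439 CPM at day 0 (log2 fold -0.99, SE 0.16, adjusted p = 9.16e-05). Per kilobase, averaged over all 16 libraries, the most abundant of the 48 was Psmb4 at 330 RPKM, followed by Psmb1 at 280.1. Psmb8 had 143 RPKM, Psmb6 117, Psmb9 114, Psmb7 92.4, Psmb5 60.1 and Psmb10 25.5, so Psmb10 was the scarcest of the 6 catalytic genes.

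Of the cap genes, 1 of the 6 ATPases and 50% of the 14 Psmd genes were called, against 63.4% of all genes. The 6 ATPases, which unfold the substrate, had a median log2 fold of -0.18 at day 12 against day 0 (0.08 with the length trend removed), and only Psmc6 was called, with 99.1 and 105 CPM at day 12, against 138 and 156 CPM at day 0 (log2 fold -0.53, SE 0.12, adjusted p = 0.00113). Psmc5 had the highest value of the 6 (log2 fold 0.22, SE 0.14, adjusted p = 0.192). Of the 14 Psmd genes, 3 were higher (21.4%) and 4 lower (28.6%), against 30% and 33.4% of all genes. Psmd2, a scaffold at which the cap meets its shuttle receptors and the ubiquitin protease Usp14, stood at 199 and 197 CPM at day 12, against 112 and 103 CPM at day 0, a 1.84-fold rise (log2 fold 0.88, SE 0.12, adjusted p = 1.44e-05). Psmd11, a lid subunit, stood at 81.2 and 81.9 CPM at day 12, against 63.2 and 62.0 CPM at day 0 (log2 fold 0.38, SE 0.09, adjusted p = 0.00219). Psmd3, another lid subunit, stood at 219 and 214 CPM at day 12, against 161 and 139 CPM at day 0 (log2 fold 0.53). For these 3 genes no library of day 12 overlapped with day 0, which held for most of the 48 genes and sets none apart. Psmd14, the deubiquitinase of the lid, was the lowest of the 14 (log2 fold -0.48, SE 0.12, adjusted p = 0.00233), with 127 and 122 CPM at day 12, against 165 and 183 CPM at day 0.

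**Figure D5:**
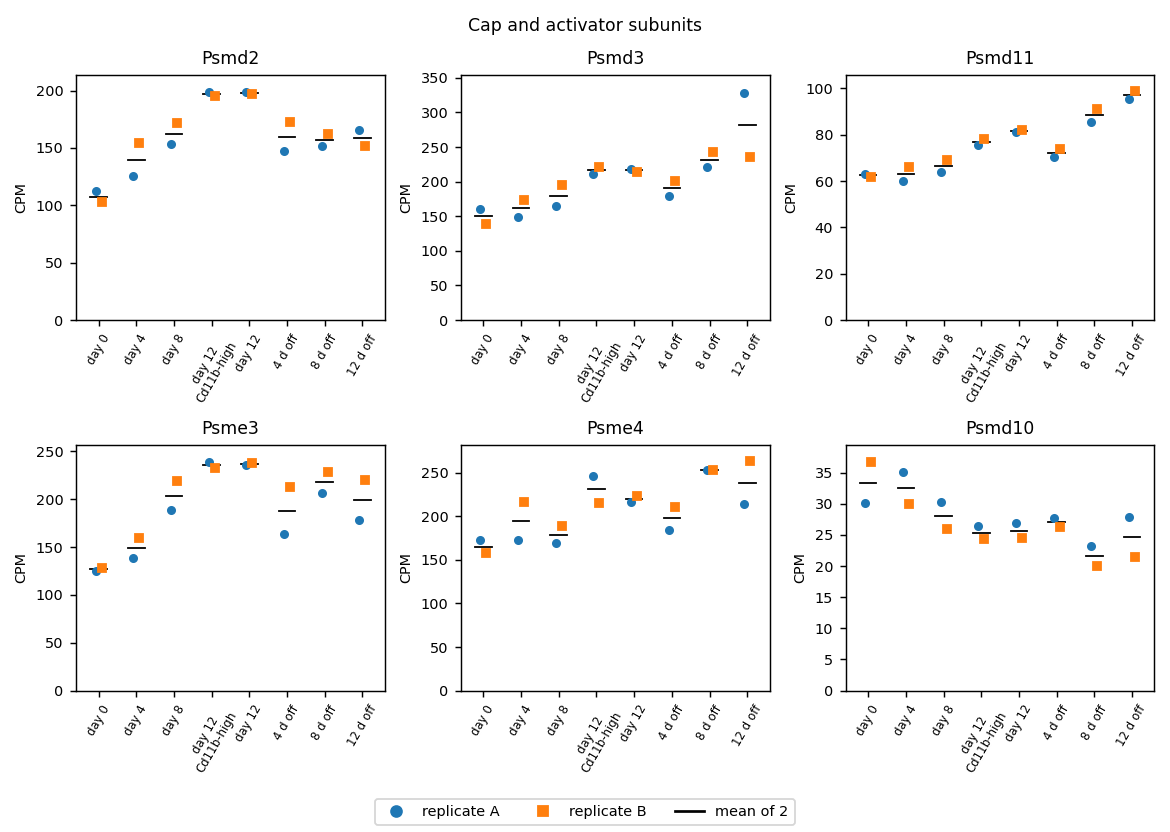
CPM of 4 Psmd genes and 2 activator genes in each library, by group, with a line at the mean of 2. Psmd2 and Psme3 climbed over days 4, 8 and 12 and stayed above day 0 after withdrawal, and Psmd10 was lowest at 8 days off.

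The activators differed, and only Psme3 was still called with the length trend removed. Psme1 and Psme2, which together form the interferon-inducible ring that opens the barrel, were not called higher. With the trend removed the sign of Psme1 turned, but Psme1 was still not called. Psme1 stood at 98.3 and 98.9 CPM at day 12, against 114 and 124 CPM at day 0 (log2 fold -0.27, SE 0.14, adjusted p = 0.102), and Psme2 at 27.5 and 28.5 CPM at day 12, against 39.6 and 37.4 CPM at day 0 (log2 fold -0.46, SE 0.15, adjusted p = 0.0139, log2 fold -0.03 with the length trend removed). Psme3, which forms a nuclear ring of the same kind alone, stood at 236 and 238 CPM at day 12, against 125 and 128 CPM at day 0, a 1.87-fold rise (log2 fold 0.90, SE 0.14, adjusted p = 4.68e-05). Psme4, a large monomeric activator of the nucleus, stood at 216 and 223 CPM at day 12, against 172 and 158 CPM at day 0 (log2 fold 0.41, SE 0.13, adjusted p = 0.0137). Its length of 6442 bases is the greatest of the 48, and its log2 fold with the length trend removed was 0.10 and was not called. The calls of Psme2 and Psme4 were each lost without 1 of the day 0 libraries and without 1 of the day 12 libraries.

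Over days 4 and 8, Psme1 gave 103 and 96.8, then 97.4 and 99.3 CPM, Psme2 gave 32.8 and 28.7, then 29.3 and 30.5 CPM, Psme3 gave 139 and 159.9, then 188 and 219 CPM, and Psme4 gave 173 and 216, then 169 and 188 CPM. At 4, 8 and 12 days off, Psme1 gave 123 and 118, 108 and 99.5, and 164 and 109.7 CPM and Psme2 gave 37.5 and 32.4, 35.6 and 31.6, and 52.5 and 36.7 CPM. Psme3 gave 163 and 213, 207 and 228, and 178 and 220.2 CPM and Psme4 gave 184 and 211, 253 and 253, and 214 and 263 CPM. Psme1 thus stood at its day 0 level at 4 days off, whereas Psme3 stayed above its day 0 level at all 3 times.

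All 4 assembly chaperones, which help the alpha ring to form, were lower at day 12, with a median log2 fold of -0.74 (-0.20 with the length trend removed, when 1 of 4 was called). Psmg3 had the largest fall, with 26.5 and 27.7 CPM at day 12, against 60.2 and 59.2 CPM at day 0 (log2 fold -1.14, SE 0.19, adjusted p = 0.000109), and Psmg1 the smallest (log2 fold -0.42, SE 0.13, adjusted p = 0.00822). Psmc3ip, a recombination factor that binds Psmc3, stood at 14.8 and 14.99 CPM at day 12, against 28.6 and 31.7 CPM at day 0 (log2 fold -1.02, SE 0.17, adjusted p = 0.000116). Psme3ip1, a nuclear protein that binds Psme3, stood at 97.2 and 101 CPM at day 12, against 80.2 and 76.8 CPM at day 0 (log2 fold 0.34, SE 0.11, adjusted p = 0.0132), and the calls of Psmg1 and Psme3ip1 were each lost without day 0 replicate B and without 1 of the day 12 libraries. Psmb11, the beta subunit of thymic cortical epithelium, was near the detection limit everywhere, with 5 and 3 reads at day 12 and 18 and 9 reads at day 0 (log2 fold -2.25, SE 0.56, adjusted p = 0.00253). It exceeded 0.5 CPM only in both day 0 libraries (0.98 and 0.66), day 8 replicate B (0.51) and replicate A at 4 days off (0.71). Since it passed the floor of 3 libraries only with day 0, its fall is no support for a change.

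At day 4 and day 8 most calls were falls. At day 4 against day 0, 2 genes were higher and 21 lower, where 59.2% of all genes were called (28.2% higher and 31% lower). At day 8 against day 0, 4 were higher and 22 lower, where 57.3% of all genes were called (27% higher and 30.2% lower). Removal of the length trend left 4 higher and 12 lower at day 4 (31.1% of all genes higher and 31.3% lower) and 9 higher and 14 lower at day 8 (29.8% and 30.3% of all genes). At day 12 against day 4, 8 genes were higher and none lower, where 27% of all genes were called, 14.7% higher and 12.3% lower, and 13 of the 48 had an unadjusted p under 0.05. The 8 higher genes are 16.7% of the set, near the share over all genes. With scaling to library size alone, which moved the median of all genes to -0.14, 4 were higher and 3 lower. The 8 genes were Psmb8, Psmb9, Psmd2, Psmd3, Psmd5, Psmd11, Psme3 and Psme3ip1, all of which were also called with the length trend removed. Psmd2 climbed over 126 and 154 CPM at day 4 and 154 and 171 CPM at day 8, and Psmd3 over 149 and 174 CPM and 164 and 195 CPM at the same times. The alpha subunits Psma5 and Psma7 were already at log2 folds of -0.69 and -0.68 at day 4 against day 0.

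Sorting for Cd11b made no detectable difference to these genes. In Cd11b-high cells, 0 of the 48 genes were called against total cells of day 12, where 0.0146% of all genes were (2 genes, with 309 at an unadjusted p under 0.05). None of the 48 had an unadjusted p under 0.05 in edgeR, DESeq2 or limma-voom, and the log2 folds lay between -0.23 (Psmb11) and 0.07 (Psme4). DESeq2 called 11 genes of the whole table and limma-voom 1. Itgam, the gene of Cd11b, stood at 884 and 940.4 CPM in Cd11b-high cells, against 719 and 669.5 CPM in total cells of day 12. Psmb8 stood at 193 and 176 CPM in Cd11b-high cells, against 182 and 186 CPM in total cells, and Psmb9 at 108 and 107 CPM, against 106 and 106 CPM. Psmb10 stood at 25.4 and 24.1 CPM in Cd11b-high cells, against 25.1 and 24.8 CPM in total cells. The log2 folds of these 3 genes were 0.00, 0.03 and -0.01. Psmb5 gave 43.5 and 41.3 CPM, Psmb6 86.1 and 87.8 CPM and Psmb7 83.0 and 77.6 CPM in Cd11b-high cells. The ratio of the immunoproteasome sum to the standard sum was 1.43 and 1.39 in Cd11b-high cells, against 1.30 and 1.34 in total cells. Psme1 gave 91.7 and 92.4 CPM, Psme2 29.1 and 26.5 CPM, Psme3 239 and 233 CPM and Psme4 246 and 216 CPM in Cd11b-high cells. The standard errors of these log2 folds lay between 0.09 and 0.23, apart from 0.76 for Psmb11, and differences of that size were not detectable.

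The next question was whether the proteasome genes came back after doxycycline was removed. Against day 12, 9 genes were higher and none lower at 4 days off, where 36.8% of all genes were called (18% higher, 18.8% lower), so the share of rises was that of all genes. At 8 days off 20 were higher and 3 lower, where 55.9% of all genes were called (28.7% higher, 27.2% lower), and the 3 lower genes were Psmb9, Psmd2 and Psme3ip1. At 12 days off 33 were higher and 1 lower, where 65.3% of all genes were called (32.9% higher, 32.4% lower). Removal of the length trend gave 7 higher and 4 lower at 4 days off (19.5% and 22.4% of all genes), 15 and 7 at 8 days off (29.2% and 30.5%), and 20 and 4 at 12 days off (32.1% and 32.8%). At 4, 8 and 12 days off, the median of the standard beta subunits was 0.30, 0.41 and 0.73, but 0.01, 0.06 and 0.11 with the trend removed. With library size alone, which moved the median of all genes to 0.15 at 4 days off, 21 genes were higher and none lower at that time.

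In the comparison of 12 days off with day 12, all 7 alpha subunits, all 7 standard beta subunits and all 4 assembly chaperones were higher, with median log2 folds of 0.79, 0.73 and 0.93. After removal of the trend 5, 3 and 2 of them were called and the medians were 0.31, 0.11 and 0.26, and without replicate A as well the beta median was -0.02. Psma7 had the highest value of the alpha subunits, with 299 and 189 CPM at 12 days off, against 109.8 and 105 CPM at day 12 (log2 fold 1.18, SE 0.17, adjusted p = 2.03e-05). Psma1 had the lowest (log2 fold 0.51, SE 0.12, adjusted p = 0.00216). Psmb2, a non-catalytic beta subunit, gave 322 and 227 CPM at 12 days off, against 129.8 and 126 CPM at day 12 (log2 fold 1.10, SE 0.14, adjusted p = 7.70e-06). The chaperone Psmg2 gave 69.3 and 61.6 CPM at 12 days off, against 37.2 and 36.6 CPM at day 12 (log2 fold 0.83, SE 0.10, adjusted p = 2.90e-06), and Psmg3 gave 96.6 and 53.4 CPM, against 26.5 and 27.7 CPM (log2 fold 1.47, SE 0.19, adjusted p = 9.35e-06). In each of these genes replicate A was the higher library at 12 days off, and both libraries lay above day 12, as for 34 of the 48 genes. The share of all genes for which both did so was not computed, so this sets no gene apart. Of the 14 Psmd genes, 9 were higher and 1 lower. Psmd7, a lid subunit, gave 272 and 196 CPM at 12 days off, against 123 and 128 CPM at day 12 (log2 fold 0.90, SE 0.13, adjusted p = 1.99e-05), and Psmd8, also of the lid, gave 319 and 208 CPM, against 128 and 124 CPM (log2 fold 1.07, SE 0.15, adjusted p = 2.30e-05). Of the 6 members with a negative log2 fold, only Psmd2 was called lower, with 165 and 152 CPM at 12 days off, against 199 and 197 CPM at day 12 (log2 fold -0.32, SE 0.12, adjusted p = 0.0262). This call was lost without either library of day 12, without replicate B at 12 days off, with the length trend removed and with library size alone.

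At 12 days off against day 12, Psmb10 rose (log2 fold 1.01, SE 0.22, adjusted p = 0.00115), whereas Psmb8 (log2 fold 0.26, SE 0.14, adjusted p = 0.13) and Psmb9 (log2 fold -0.18, SE 0.13, adjusted p = 0.237) were not called. The standard catalytic genes rose, Psmb5 by 0.73 (adjusted p = 0.000758), Psmb6 by 0.82 (adjusted p = 0.000415) and Psmb7 by 0.48 log2 units (adjusted p = 0.00847). With the length trend removed, Psmb9 was called lower with a log2 fold of -0.84, and Psmb7 stood at -0.07 and Psmb5 at 0.11, neither called. Psmb9 was also called lower without replicate A at 12 days off, and Psmb8 was called higher without replicate B. Psmb10 had a log2 fold of 0.41 without replicate A, 0.58 with the trend removed and 0.18, not called, with both. Without replicate A the log2 folds of Psmb5, Psmb6 and Psmb7 were 0.36, 0.47 and 0.17, the last not called, and that of Psme1 was 0.15 and not called. Psme1 (log2 fold 0.47, SE 0.14, adjusted p = 0.008) and Psme2 (log2 fold 0.67, SE 0.15, adjusted p = 0.00102) rose, to -0.08 and 0.12 with the trend removed and then not called. Psme3 (log2 fold -0.25, SE 0.14, adjusted p = 0.121) and Psme4 (log2 fold 0.12, SE 0.13, adjusted p = 0.438) were not called. Of the ATPases, Psmc6 was the highest (log2 fold 0.39, SE 0.12, adjusted p = 0.00842) and Psmc5 the lowest (log2 fold -0.09, SE 0.14, adjusted p = 0.6), and the call of Psmc6 was lost without replicate A (log2 fold 0.24) or without day 12 replicate A. The length classes again differed over all genes, with a median log2 fold of 0.73 under 1000 bases and -0.46 over 5000 bases.

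Replicate A at 12 days off moved these values. Its difference from replicate B over all genes was 0.53 log2 units under 1000 bases and -0.53 over 5000 bases. Without it, 27 genes were higher and 4 lower than at day 12, and all 27 were among the 33 called with it. Without it and with the length trend removed, 15 were higher and 11 lower, and the rises then included Psma3, Psma4, Psma5, Psma7, Psmb1, Psmb2, Psmd7, Psmd8, Psmg2 and Psmg3. Without replicate B instead, 39 were higher and 1 lower.

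The last question was whether cells 12 days after withdrawal had returned to the untreated state. A group of genes stayed above day 0, among them Psmb8, Psmb9, Psmd2, Psmd3, Psmd11, Psme3 and Psme4, all of which had also been higher at day 12. Against day 0, 15 genes were higher and 2 lower at 12 days off, where 43.6% of all genes were called (21.6% higher and 22% lower), and the median log2 fold was 0.20 over the 48 genes and 0.00 over all genes. With the length trend removed 16 were higher and 2 lower (27.3% of all genes higher and 23.8% lower), and all 17 calls were kept. Without replicate A the median log2 fold over the 48 genes was -0.07, against -0.01 over all genes. Without replicate A and with the length trend removed, it was 0.02, against 0.01 over all genes. Without replicate B it was 0.50, against 0.05 over all genes. Neutrophil markers summed to 2.36 to 3.10 CPM at 12 days off, against 10.9 to 20.9 CPM at day 0, progenitor markers to 733 to 848 CPM, against 1377 to 1639 CPM, and eosinophil markers to 4204 to 4284 CPM, against 2077 to 5173 CPM. Epx made up most of the eosinophil sum. Of the 6 eosinophil markers, 3 were called lower and 1 higher, with a median log2 fold of -1.45. Macrophage and dendritic markers summed to 9.53 to 10.3 CPM at 12 days off, against 13.7 to 14.0 CPM at day 0, lymphoid markers to 161 to 193 CPM, against 225 to 316 CPM, basophil and mast cell markers to 1575 to 1904 CPM, against 1830.4 to 2120 CPM, and erythroid markers to 9.62 to 12.9 CPM, against 11.4 to 19.1 CPM. The sums at 12 days off thus lay below both day 0 libraries for neutrophil, progenitor, macrophage and dendritic, and lymphoid markers. For eosinophil, basophil and mast cell, and erythroid markers the ranges overlapped. The part of these markers in the proteasome values was not tested.

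The rises at 12 days off against day 0 included 7 of the 14 Psmd genes and none of the 6 ATPases. Psmd11 gave 95.6 and 99.0 CPM at 12 days off, against 63.2 and 62.0 CPM at day 0 (log2 fold 0.64, SE 0.09, adjusted p = 7.78e-05), and its replicates were close. Psmd3 gave 328 and 236 CPM at 12 days off, against 161 and 139 CPM at day 0 (log2 fold 0.91, SE 0.15, adjusted p = 0.000193). Psmb2 gave 322 and 227 CPM, against 147 and 153 CPM at day 0 (log2 fold 0.87, SE 0.14, adjusted p = 0.000182). In these 3 genes both libraries at 12 days off lay above both of day 0, as for 16 of the 48 genes. That share was not computed over all genes either. Psmb9 stayed higher (log2 fold 0.83, SE 0.14, adjusted p = 0.000209), as did Psmb8 (log2 fold 0.70, SE 0.14, adjusted p = 0.00134), with log2 folds of 0.60 and 0.37 without replicate A. Psme3 (log2 fold 0.65, SE 0.14, adjusted p = 0.00155) and Psme4 (log2 fold 0.53, SE 0.13, adjusted p = 0.00479) were also higher, and in both genes replicate B was the higher library. Psmd10, the oncoprotein gankyrin that helps the cap assemble, was lower, with 27.9 and 21.5 CPM at 12 days off, against 30.1 and 36.7 CPM at day 0 (log2 fold -0.43, SE 0.15, adjusted p = 0.0301). Its call was lost with DESeq2, with RLE factors, with 4 libraries fitted alone, and without day 0 replicate B or replicate B of 12 days off (log2 fold -0.18). It overlaps Atg4a by 2867 bases in the annotation, as Psme4 overlaps Erlec1 by 18357 bases and Psma3 overlaps 3110056K07Rik by 4263 bases. Psma5, Psmb5, Psmb6 and Psmb7 have annotated pseudogenes, and the treatment of shared reads is not stated, so the counts of these genes are uncertain to that extent. Psmb11 was the other lower gene, at 6 and 6 reads at 12 days off, against 18 and 9 reads at day 0, and its call was lost without either replicate of 12 days off or without day 0 replicate A. It had passed the floor on counts only with the day 0 libraries.

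Several core genes were not told apart from day 0 at 12 days off. Psmb5 (adjusted p = 0.12), Psmb6 (adjusted p = 0.935), Psmb7 (adjusted p = 0.1) and Psmb10 (adjusted p = 0.493) were not called, and neither were Psme1 (adjusted p = 0.265) and Psme2 (adjusted p = 0.268). Replicates A and B at 12 days off lay on either side of the day 0 libraries in Psmb5, Psmb6 and Psmb10. Psmb10 had a log2 fold of 0.20 with both, -0.40 without replicate A and 0.71 without replicate B. Psmb6 had log2 folds of -0.02, -0.37 and 0.34 in the same order. At 8 days off, where the replicates agreed more closely, 9 genes were higher and 3 lower than at day 0 (33.1% of all genes called, 16.2% higher and 16.9% lower), and 12 were higher and 4 lower with the length trend removed (20.97% and 20.1% of all genes). The 9 were Psmb2, Psmb9, Psmd2, Psmd3, Psmd5, Psmd7, Psmd11, Psme3 and Psme4, and the 3 were Psmb11, Psmc6 and Psmd10. All 9 were also called higher at 12 days off. At 4 days off 4 were higher and 6 lower than at day 0 (37.9% of all genes called, 18.8% higher and 19.1% lower), or 10 and 5 with the length trend removed (22.8% and 21.4% of all genes). These comparisons share the day 0 libraries.

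Genes around the proteasome were read through 5 lists written from textbook knowledge. Their counts are to be read against all genes, of which 30% were higher and 33.4% lower at day 12 against day 0, 32.9% and 32.4% at 12 days off against day 12, and 21.6% and 22% at 12 days off against day 0. No value of these lists was recomputed with the length trend removed or with a library left out. For all genes under 1000 bases the median log2 fold was -0.66 at day 12 against day 0. At 12 days off against day 12 it was 0.73. The part of that trend in the list genes was not tested. Of 15 genes of MHC class I peptide supply and presentation, 12 rose and 1 fell at day 12 against day 0, with a median log2 fold of 1.10. The antigen-presenting molecule H2-D1 had a log2 fold of 2.15 (adjusted p = 1.65e-09), the loading factor Tapbp 2.19 (adjusted p = 8.29e-09), the light chain B2m 1.98 (adjusted p = 1.86e-08) and H2-K1 1.87 (adjusted p = 2.97e-08). Of the 15, at 12 days off against day 12, 1 rose and 11 fell, and against day 0 9 rose and 1 fell. H2-D1 then still stood at 1.57 above day 0 and H2-K1 at 1.68.

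Of 15 genes of interferon signalling, 9 rose and 3 fell at day 12 against day 0 (median 0.47), and 2 rose and 10 fell at 12 days off against day 12 (median -0.46). The kinases Jak1 (log2 fold 2.08, SE 0.13, adjusted p = 8.29e-09) and Jak2 (log2 fold 1.34, SE 0.11, adjusted p = 9.04e-08) rose, while the receptor chain Ifngr1 fell (log2 fold -1.14, SE 0.09, adjusted p = 9.72e-08). Against day 12, at 12 days off, Jak1 stood at -1.41 and Jak2 at -1.46. Against day 0, 4 rose and 4 fell at 12 days off, near the shares over all genes.

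Of 13 genes that control proteasome transcription, 9 rose and 2 fell at day 12 against day 0 (median 0.56). Nfe2l1, which raises proteasome genes when proteasome activity is short, gave 268 and 259.9 CPM at day 12, against 124 and 137 CPM at day 0 (log2 fold 1.02, SE 0.12, adjusted p = 4.37e-06). Nfe2l2 (log2 fold 0.67, SE 0.11, adjusted p = 7.27e-05) and the CCAAT-binding subunits Nfya (log2 fold 0.68, SE 0.11, adjusted p = 7.29e-05) and Nfyc (log2 fold 0.71, SE 0.11, adjusted p = 3.85e-05) rose as well. Against day 12, at 12 days off, 2 rose and 6 fell, and against day 0 2 rose and 2 fell, with Nfe2l1 still 0.99 log2 units above day 0 (adjusted p = 1.75e-05).

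Of 18 genes of ubiquitin and delivery to the proteasome, 8 rose and 4 fell at day 12 against day 0 (median 0.39). The rises were led by the autophagy receptor Sqstm1 (log2 fold 1.34, SE 0.12, adjusted p = 3.18e-07), Nploc4, a cofactor of the segregase Vcp (log2 fold 1.16, SE 0.11, adjusted p = 5.01e-07), the shuttle Ubqln1 (log2 fold 1.23, SE 0.13, adjusted p = 1.39e-06) and Vcp itself (log2 fold 1.10, SE 0.12, adjusted p = 1.89e-06). At 12 days off against day 12, 5 rose and 7 fell, led by the ubiquitin fusion gene Rps27a, with 113 and 70.4 CPM at 12 days off, against 30.3 and 32.5 CPM at day 12 (log2 fold 1.54, SE 0.18, adjusted p = 3.94e-06), and against day 0 8 rose and 3 fell. Of 13 proteasome-associated genes outside the naming rule, 6 rose and 3 fell at day 12 (median 0.30). Pomp, the maturation factor of the barrel, fell at day 12 against day 0 (log2 fold -0.63, SE 0.17, adjusted p = 0.00378) and rose at 12 days off against day 12 (log2 fold 0.92, SE 0.17, adjusted p = 0.000193), with 271 and 171 CPM at 12 days off, against 118 and 116 CPM at day 12, replicate A again the higher, when 3 of the 13 rose and 1 fell. Against day 0, 5 of the 13 rose at 12 days off and none fell, led by Akirin2, which carries proteasomes into the nucleus (log2 fold 0.93, SE 0.10, adjusted p = 3.67e-06). In Cd11b-high cells against total cells, 0 genes of these 5 lists were called.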

How the data were processed

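Read counts per gene, with gene lengths, were deposited by the authors as 1 table per library. The submitters' processing notes list featureCounts, edgeR, limma and mm10, without versions. For the aligner, the strand setting and the treatment of reads with several matches, the sources used here give nothing. Every deposited gene exceeded 0.5 CPM in at least 3 libraries, so scarce genes cannot be seen.

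The 48 genes, the gene lists and the tests were chosen with earlier results of these data known. Counts of all 13652 genes in all 16 libraries were fitted with edgeR 4.0.16 in R 4.3.3 (TMM scaling, quasi-likelihood, robust, 1 mean per group, 8 residual degrees of freedom). A two-sided Benjamini-Hochberg adjusted p under 0.05 over all genes was a call. filterByExpr removed 0 genes. The biological coefficient of variation was 10.9%. The script was tested on simulated data. CPM used TMM-scaled totals, and logs a prior count of 0.5. SE is the size of the log2 fold over the square root of F. Ratios were compared by exact permutation with scipy 1.17.1.

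Genes named with full values were the catalytic subunits, the activators, the highest and lowest of each class and those with the lowest p in each comparison. From each gene list up to 4 genes with the lowest p could be named. A gene of the interferon list is counted there but not reported here. Psmd3, Psmd10 and Psme3ip1 beyond that rule, and the gene lists of calls kept, were named after their values were seen. Alternatives were RLE factors, library size alone, DESeq2 1.42.0, limma-voom (limma 3.58.1), fits to 4 libraries, a replicate block and each library left out. Removal of the length trend (lowess span 0.3) was added after seeing the data. The main fit did not pair the libraries by replicate letter, because the labels give no pairing. Of 28 group pairs, 5 had a correlation of A minus B differences over 0.1 (range -0.08 to 0.21), which cannot settle whether the letters pair. Psma8 and Psme2b were not analysed here. Sequences and coordinates are from RefSeq, GRCm38.p6.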

Additional observations from a re-analysis of the deposited data

Results flagged for a closer look

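In 8 of the 48 genes the response to doxycycline differed between times, by the direct edgeR comparison of day 12 with day 4. All 8 were higher at day 12, 16.7% of the set, against 14.7% of all genes, so the count is near the background. The effect at day 12 exceeded that at day 4 by 0.71 log2 units in Psmb8, 0.52 in Psmb9, 0.50 in Psmd2, 0.42 in Psmd3, 0.31 in Psmd5, 0.37 in Psmd11, 0.67 in Psme3 and 0.33 in Psme3ip1. All 8 had adjusted p-values under 0.05. Both effects share the day 0 libraries, which cancel in the difference. Neutrophil markers summed to 602 to 621 CPM at day 12, against 2221 to 2844 CPM at day 4, and eosinophil markers to 7954 to 8892 CPM, against 202 to 240.2 CPM. Their part in these differences was not tested.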

How the results depend on the processing

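The 93 values of named proteasome genes were recomputed 1161 times, of which 1028 kept their direction and side of the threshold. The gene lists around the proteasome were not recomputed in this way. Calls at 12 days off numbered 16 against day 12 and 6 against day 0 when 4 libraries were fitted alone. At 4 days off there were 21 calls against day 12 with library size alone, and against day 0 6 with RLE factors. Leaving out a library in turn gave 21 to 27 calls at day 12 against day 0, 29 to 40 at 12 days off against day 12, 13 to 43 against day 0 and 0 to 0 for Cd11b-high cells. The replicate block gave 32, 34 and 17 calls in the first 3 of these and 14 at 4 days off against day 12. Over all genes, Cd11b-high cells gave 2 calls, or 155 higher and 158 lower when 4 libraries were fitted alone.

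The ratio difference between doxycycline and day 0 was 0.53 by paired ratios and 0.69 to 1.01 with a library left out. Between doxycycline and withdrawal it was 0.13 to 0.29, and neither difference was recomputed with the length trend removed. With the length trend removed, the sign turned at day 12 against day 0 in Psmb5 (0.047), Psmb7 (0.25) and Psma2 (0.29), and at 12 days off against day 12 in Psmb7 (-0.072) and Psme1 (-0.078). In each of these comparisons at least 1 further named gene, called in neither fit, also changed sign, among them Psme1 at day 12 against day 0. Without replicate A of 12 days off as well, Psmb8 (-0.32), Psmb5 (-0.017), Psmb7 (-0.16) and Psme1 (-0.18) turned. At 12 days off against day 0, Psmb10 was -0.40 to 0.71 with a library left out and -0.31 without replicate A and the trend. Psmb6 was -0.37 to 0.34 and Psmc3ip -0.41 to 0.35 with a library left out. Beyond the libraries left out and the length term itself, the cause was not tested. With 2 libraries a group, depth limits Psmb11 alone, at 2 to 18 reads.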
